A study of Mus musculus with 96 samples.

Results

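The cytoplasmic ribosomal protein (RP) genes encode the proteins of the large and small subunits of the ribosome, and they were followed here in 4 cell types of the mouse heart after myocardial infarction. Members were chosen by name alone. They were the protein-coding genes of GRCm38 whose symbol is Rpl or Rps with a number, with or without an a, x or y and an l suffix, together with Rplp0, Rplp1, Rplp2 and Rpsa, and without the Rps6k kinase genes and unnamed copies. This gave 83 of the 50944 genes listed in every file (21838 of them protein-coding). The large subunit had 52 members, 3 of which (Rplp0, Rplp1 and Rplp2) form its stalk, and the small subunit had 31. Ribosomal genes with other names, such as Fau and Rps3a1, fell outside the rule.

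Total RNA-seq was made from male C57Bl/6J mice aged 12 to 14 weeks, either controls without infarct (Day 0) or mice whose left anterior descending artery had been tied off for good 1, 3, 7, 14 or 28 days before (Day 1 to Day 28). Low-speed centrifugation gave the cardiomyocytes (CM), CD45 beads the hematopoietic cells (HC), CD144 beads the endothelial cells (EC) and plating of the unbound cells the fibroblasts (FB). Each of the 24 groups had 4 libraries, 96 in all, and each library pooled RNA of 3 mice (2 where a sample was missing), with the cell types of a day taken from the same animals. The labels name no sham operation, so the infarct and the surgery cannot be told apart, and cell type cannot be told apart from library batch. The study describes the replicates both as biological and as technical, so p-values measure the spread between pools.

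A ribosome is built from ribosomal RNA and roughly equal numbers of its many proteins, and cells that grow or divide make more of all of them. In vertebrates most RP mRNAs begin with a C and a run of pyrimidines, the terminal oligopyrimidine (TOP) tract, through which the mTOR kinase and the RNA-binding protein Larp1 control their translation. A few RP genes have a paralog with a restricted pattern, and the best known in the heart is Rpl3l, which takes the place of Rpl3 in striated muscle.

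The starts of 5 genes that the results turn on are shown because they hold a pyrimidine run near the annotated start, or lack one. Each stretch is 30 bases of the RefSeq sequence of GRCm38.p6 on the gene's own strand, and a run was a C followed by at least 7 bases that are each C or T, beginning within 25 bases of the annotated start. The capitals mark the run that begins nearest to that start, and pyrimidines before its first C, as in Rpl34, are left in lower case. Rps6 (chr4:86857348-86857377, minus strand) encodes the small subunit protein that is phosphorylated downstream of mTOR, Rpl34 (chr3:130730318-130730347, minus strand) and Rplp2 (chr7:141447641-141447670, plus strand) a large subunit and a stalk protein, and Rpl22l1 (chr3:28805498-28805527, plus strand) and Rpl3l (chr17:24727816-24727845, plus strand) are paralogs.
Rps6: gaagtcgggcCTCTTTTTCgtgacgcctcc
Rpl34: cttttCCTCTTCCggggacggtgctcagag
Rplp2: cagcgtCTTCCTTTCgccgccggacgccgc
Rpl22l1: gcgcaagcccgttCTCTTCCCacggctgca
Rpl3l: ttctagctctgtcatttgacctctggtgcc
Of the 83 members, 63 had a RefSeq window, and 37 of these 63 (58.7%) held such a run, against 19.3% of 26962 other genes. A C and 4 pyrimidines stood exactly at the annotated start in 20.6% of members and 2.97% of other genes. Of the genes shown, Rps6 and Rplp2 had them there, and Rpl34, Rpl22l1 and Rpl3l did not. Of the 7 paralogs with an l in their symbol, 3 held a run, and Rpl3l was not among them. RefSeq had no window for Rpl3.

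Because RP genes have many processed copies, their reads are partly shared. Named pseudogenes were annotated for 60 members (286 copies), and for Rpl10, Rpl9 and Rps2 most reads of the gene and its copies together were assigned to the copies in every cell type, 95.7%, 93.4% and 84.1% in CM. Values of these genes and of Rpl36a were therefore uncertain, and their changes are given also with the reads of the copies added. In CM and EC, whose files list transcripts, non-coding isoforms held 7.13% to 11.3% of the members' reads.

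CM libraries held 13503024 to 55758471 estimated reads, EC 12445124 to 33868990, FB 2664338 to 36545715 and HC 16214419 to 40395291, of which 94379 to 379720, 119732 to 661879, 50136 to 1244441 and 309789 to 1839378 lay on RP genes. In 8 libraries (HC Day 28 replicates 2 and 4, FB Day 28 replicate 4, FB Day 3 replicates 2 and 3, and in EC replicates 1 and 2 of Day 0 and 3 of Day 28) 60 to 130 genes annotated as antisense reached 5 RPM (the usual scaling of reads to library size, here to the reads outside rRNA genes) and 5 times the median of the other libraries of their group, against 0 to 16 in the other 88. FB Day 3 replicates 2 and 3 were also the shallowest. Changes from Day 0 that rest on these 8 are given with and without them, as are most counts of called genes. Marker sums in RPM are given with them. The study itself left out 2 replicates of FB Day 3 and 1 of HC Day 28 as outliers, after a principal component analysis of its total RNA-seq. Its text does not say which, and all 4 libraries of these groups were kept here except where stated. The markers of CM, EC, FB and HC (4 genes each) were most abundant in their own isolate, but CM markers were also present in EC and HC at Day 0, at 1641 to 2522 and 1992 to 2939 RPM against 6885 to 14020 in CM.

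RP genes were among the most abundant mRNAs of all 4 cell types. Per length, as TPM scaled to the 21825 nuclear protein-coding genes, the median member stood at Day 0 at 1369 in FB, 1214 in HC, 1058 in EC and 774.9 in CM, at the 99.1st to 99.5th percentile of those genes. At least 100 TPM was reached by 77 members in CM, 79 in EC and FB and 80 in HC. Rpl27 and Rpl24 of the large subunit and Rps29 and Rps19 of the small subunit, named here after their values were seen, ranked in the first 8 of the members in each cell type, with Rpl27 at 4127 ± 525 TPM in CM and Rps19 at 6176 ± 1980 in EC (SD, n = 4). At the low end, the paralog Rpl10l was listed at 0 in every library of Day 0, Rpl39l stood at 0.547 to 1.77 TPM on average and Rpl7l1 at 18.4 to 55.6.

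**Figure D1:**
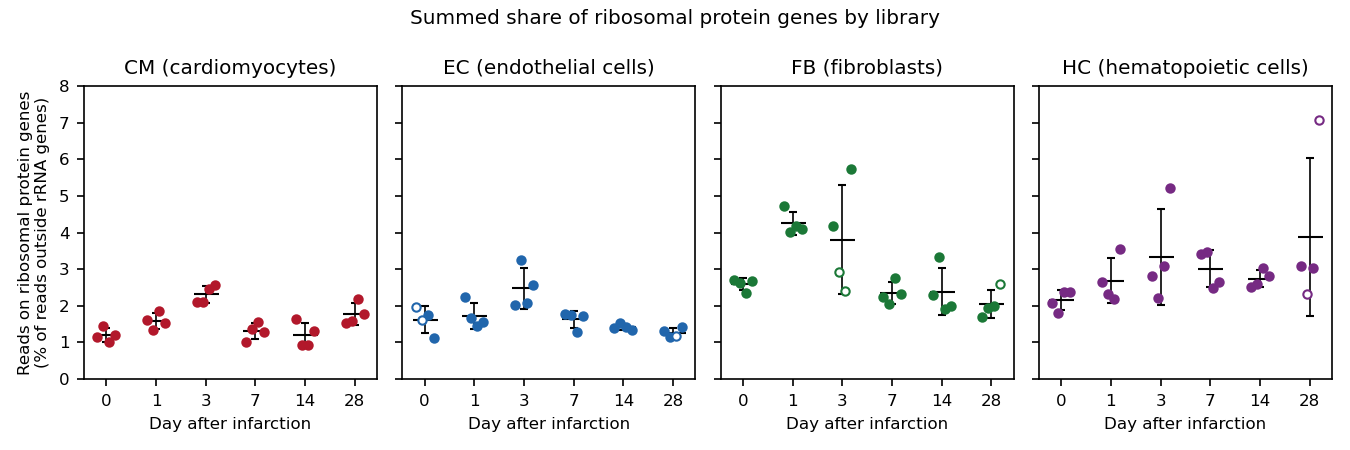
Percent of the reads outside rRNA genes that lay on RP genes (vertical axis) by day (horizontal axis) in each cell type (panels), with a point per library and black bars for the mean ± SD of 4. CM rose from 1.01 to 1.45% at Day 0 to 2.11 to 2.57% at Day 3, and open circles mark the 8 libraries with antisense transcripts.

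The share of reads on RP genes rose early after the infarct in CM, EC and FB, and in CM and HC it lay above Day 0 on some later days. In CM it was 1.01% to 1.45% of the reads outside rRNA genes at Day 0, 1.33% to 1.87% at Day 1 and 2.11% to 2.57% at Day 3. It was 0.930% to 1.64% at Day 14 and 1.54% to 2.20% at Day 28. In EC it was 1.12% to 1.98% at Day 0, 2.03% to 3.24% at Day 3 and 1.15% to 1.41% at Day 28. In FB it was 2.36% to 2.71% at Day 0 and 4.02% to 4.72% at Day 1. In HC it was 1.81% to 2.39% at Day 0, 2.22% to 5.21% at Day 3, 2.49% to 3.47% at Day 7 and 2.51% to 3.03% at Day 14. On this share the groups of Day 0 did not overlap with CM Day 3 or Day 28, EC Day 3 or FB Day 1. They did not overlap with HC Day 7 or Day 14 either, but did with HC Day 3. Reads of the mitochondrial genome moved the other way in CM, from 42.3% to 58.5% at Day 0 to 35.5% to 46.7% at Day 3. They also fell in EC, from 22.0% to 31.0% at Day 0 to 14.3% to 17.9% at Day 3. In HC they were at 12.8% to 17.8% at Day 0, 4.84% to 5.725% at Day 7 and 7.70% to 8.18% at Day 14. Counted outside these as well, the RP share of CM was 2.26% to 2.50% at Day 0 and 3.53% to 4.53% at Day 3.

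Each later day was compared with Day 0 within a cell type to ask which genes the infarct changes over time. The test was edgeR's quasi-likelihood test on rounded counts with TMM scaling, and genes with an adjusted p under 0.05 over all those tested are named called (81 members in CM and EC, 82 in FB and HC). A log2 fold change is given ± its SE, and a level as CPM, the usual scaling of counts to library size, after TMM. The 4 libraries of a day can also be set against the 4 of Day 0. In CM, 2 members lay wholly above and 1 wholly below Day 0 at Day 1 (8.11% and 5.49% of all genes), 1 and 3 at Day 7 (10.1% and 7.27%), 1 and 3 at Day 14 (9.88% and 6.76%) and 9 and 2 at Day 28 (5.69% and 4.42%). In EC the counts were 9 and 1 at Day 1 (9.56% and 6.69%), 2 and 3 at Day 7 (15.9% and 14.6%) and 2 and 5 at Day 14 (12.1% and 11.8%). In FB they were 0 and 6 at Day 7 (13.9% and 13.7%) and 1 and 1 at Day 14 (13.9% and 12.2%). In HC they were 20 and 1 at Day 1 (21.9% and 27.6%), 26 and 1 at Day 7 (18.9% and 18.8%) and 17 and 1 at Day 14 (14.3% and 15.8%). The other days are given with their calls. Shares of all genes are those of the fit with all libraries. None is given for the fits that leave libraries out, such as those without the 8 with antisense transcripts. The samples are bulk isolates, so fewer cells of a type and less RNA per cell cannot be told apart.

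**Figure D2:**
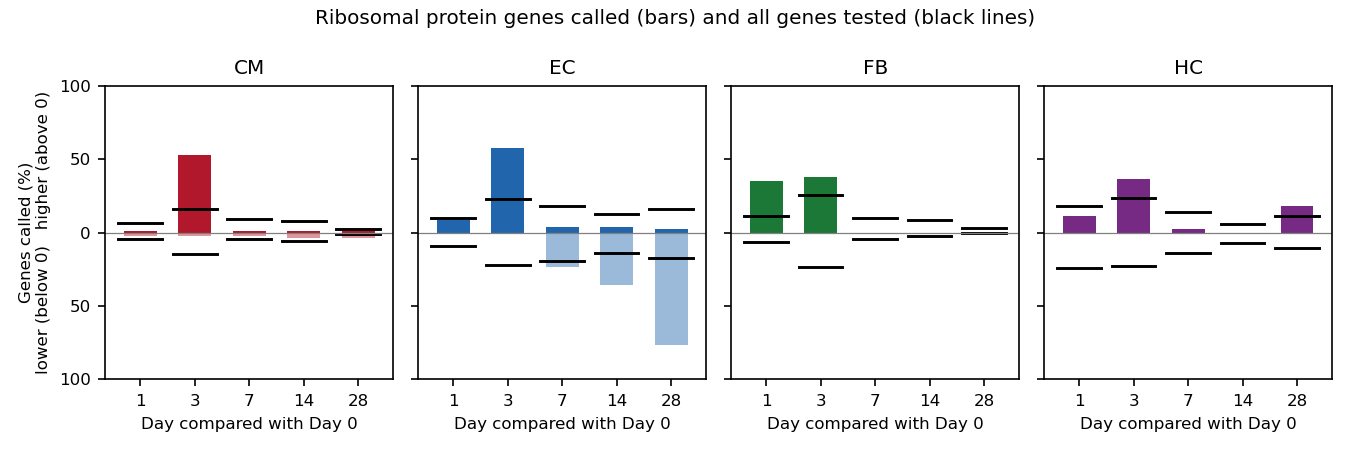
Percent of RP genes called higher (bars above 0) or lower (bars below 0) than at Day 0 by day (horizontal axis) and cell type (panels), with black lines for the same percent over all genes tested. The tallest bars are EC Day 28 (62 of 81 lower), EC Day 3 (47 of 81 higher) and CM Day 3 (43 of 81 higher), but EC Day 28 turned to 40 higher and 1 lower on TPM, where the median of all genes was also up, by 0.72.

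In CM, the contractile cells, 43 of 81 RP genes were higher at Day 3 and 2 were lower, where 16% of the 14535 genes tested were higher and 14.6% lower. The large subunit had 28 of 50 genes higher and the small subunit 15 of 31, with median log2 fold changes of 0.60 and 0.57, and the median over all members was 0.59 against -0.06 over all genes. For 41 members the 4 libraries of Day 3 lay wholly above the 4 of Day 0, as they did for 15.3% of all genes, and for none wholly below (11.1%). With the reads outside rRNA genes as library size and no TMM, 67 members were higher, at a median of 0.98, but the median of all genes then stood at 0.33. The count of 43 fell to 27 without Day 0 replicate 1, 18 without Day 0 replicate 4, 15 without Day 3 replicate 3 and 23 without Day 3 replicate 4. Markers of other cells moved with it, with leukocyte markers (4 genes) at 0.446 to 1.13 RPM at Day 0 and 14.5 to 22.3 at Day 3, monocyte markers (6 genes) at 4.38 to 6.21 and 52.1 to 85.9, FB markers (4 genes) at 4.50 to 9.37 and 18.4 to 26.7 and division genes (6 genes) at 2.48 to 3.36 and 47.9 to 76.9. The CM markers overlapped between the days (6885 to 14020 and 9194 to 12750), and the part of the other cells in the result was not tested.

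The gene with the highest change in CM was Rpl3, which encodes a protein near the peptidyl transferase center. It stood at 23.0, 26.6, 19.2 and 20.7 CPM at Day 0 and at 58.9, 62.5, 60.2 and 63.5 at Day 3, with no overlap, and rose by 1.45 ± 0.15 (adjusted p = 9.47e-08). Its level was already higher at Day 1 (44.1, 42.8, 49.0 and 53.1 CPM, 1.08 ± 0.15, adjusted p = 2.63e-05), and it stayed above Day 0 at Day 7 (0.54 ± 0.15, adjusted p = 0.0159) and Day 14 (0.69 ± 0.15, adjusted p = 0.00292). At Day 28 it was at 0.45 ± 0.15, adjusted p = 0.0803. The Day 7 call was lost without Day 0 replicate 4 (0.50) or Day 7 replicate 2 (0.44). By limma on log2(TPM + 1), the calls of Day 1 (1.06), Day 7 (0.54) and Day 14 (0.67) were lost.

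Next to Rpl3 in CM at Day 3 stood Rps12, a small subunit gene, at 75.3, 59.5, 74.6 and 54.6 CPM at Day 0 and 140, 110.4, 148 and 128 at Day 3 (1.00 ± 0.23, adjusted p = 0.00191). Rpl22l1, the paralog of Rpl22, went from 15.6, 13.2, 20.6 and 13.1 CPM to 36.1, 26.7, 34.2 and 26.9 (0.99 ± 0.21, adjusted p = 8.52e-04). Both genes had all 4 libraries of Day 3 above those of Day 0. The smallest called rises were those of Rpl6 (0.52 ± 0.19, adjusted p = 0.0396) and Rpl4 (0.39 ± 0.13, adjusted p = 0.0232), and these calls were lost without 1 of 5 and 1 of 2 libraries. Rpl5 and Rpl11, which with their rRNA also bind the p53 regulator Mdm2, rose by 0.68 ± 0.18 and 0.66 ± 0.21 (adjusted p = 0.00616 and 0.0193). Rpl34 rose by 0.67 ± 0.21 (adjusted p = 0.0176), while Rps6, whose tract is shown above, was at 0.38 ± 0.20 (adjusted p = 0.150). Of the stalk genes only Rplp1 was called (0.69 ± 0.23, adjusted p = 0.0273), with Rplp2 at 0.48 ± 0.24 and Rplp0 at 0.37 ± 0.22 (adjusted p = 0.132 and 0.211). Rpsa, a small subunit gene whose protein also serves as a laminin receptor, was at 0.02 ± 0.31 (adjusted p = 0.970), with overlapping libraries.

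Both genes called lower in CM at Day 3 were ones whose reads are shared with copies. Rpl36a, of the large subunit, fell from 36.6, 27.7, 35.5 and 22.2 CPM to 23.7, 7.43, 7.71 and 7.86 (-1.38 ± 0.49, adjusted p = 0.0388), but with its copies added it was at 0.78, and the call was lost without 1 of 6 libraries. Rps2, of the small subunit, went from 41.3, 66.5, 28.1 and 42.9 CPM to 31.2, 23.97, 29.4 and 36.0 (-0.57 ± 0.18, adjusted p = 0.0212), and at 0.28 with its copies added and 0.41 on TPM. With copies added to every member, 45 were higher and none was lower.

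On the other days few members were called in CM. At Day 1 the count was 1 higher (Rpl3) and 2 lower (6.8% and 4.58% of all genes), at Day 7 1 and 2 (8.92% and 4.33%), at Day 14 1 and 3 (8.05% and 5.71%) and at Day 28 1 and 3 (2.49% and 1.09%). The lower genes were Rps2 and Rpl9 at Day 1 and Day 7, these and Rpl3l at Day 14, and these and Rpl36a at Day 28, where Rpl21, a large subunit gene, was the higher one. Rpl9 was at 3.93 to 9.47 CPM in CM, was named after its values were seen, and with copies added was at 0.01, -0.22, -0.29 and 0.27 at Day 1, 7, 14 and 28, where it was not called. Rps2 went from 28.1 to 66.5 CPM at Day 0 to 18.1 to 23.6 at Day 14 (-1.08 ± 0.19, adjusted p = 3.13e-04). With its copies added Rps2 was at 0.08, -0.46, -0.57 and 0.12 at Day 1, 7, 14 and 28 (adjusted p = 0.854, 0.154, 0.0734 and 0.776), and Rpl36a at 0.45 at Day 28, so that none of these calls was made. At Day 14 the median of all members was -0.28, at 0.01 without TMM and 0.08 on TPM, and leaving out Day 14 replicate 1 gave 21 members lower and Day 28 replicate 3 gave 5. At Day 1 none was lower without Day 0 replicate 2 and 1 without Day 1 replicate 3. At Day 28, 1 was lower without Day 0 replicate 2 and none without Day 28 replicate 4. The median was 0.44 and 37 members had an unadjusted p under 0.05, and 8 were called higher by DESeq2, 12 with a replicate block and 19 without TMM. Rpl21 was at 78.3, 66.8, 135 and 84.1 CPM at Day 28 and 41.2, 55.6, 51.8 and 60.9 at Day 0 (0.80 ± 0.21, adjusted p = 0.0372), a call that was lost without Day 28 replicate 3 (0.53) or 4 (0.83) or any 1 library of Day 0 (0.71 to 0.87).

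Rpl3 and Rpl3l share 73.2% of their coding bases (1209 and 1221 bases), and their balance differed between cell types and days. Rpl3l was higher in CM than in the mean of the other cell types by 6.72 ± 0.11 on the log2 scale (adjusted p = 5.48e-65), and Rpl3 was lower (-0.84 ± 0.07, adjusted p = 1.59e-19), where cell type and batch cannot be told apart. At Day 0 in CM, Rpl3l stood at 714, 430, 575 and 343 TPM and Rpl3 at 219, 182, 149 and 135. Rpl3 ranked only 76th of the 83 members in CM but 47th or 48th in the other cell types. Rpl3l was then 76.5%, 70.2%, 79.4% and 71.8% of the pair in CM, against 8.65% to 14.2% in EC, 6.37% to 11.3% in HC and 0.0902% to 0.244% in FB.

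After the infarct this share fell in CM. Day 1 had 65.7%, 49.3%, 64.5% and 47.1%, Day 3 had 52.3%, 38.1%, 55.5% and 51.2%, and Day 14 had 53.2%, 41.6%, 49.5% and 52.2%, all below the 4 values of Day 0. At Day 28 it was 73.7%, 67.6%, 55.7% and 65.4%, which overlapped Day 0. Rpl3l itself was at 54.4, 64.6, 59.0 and 54.0 CPM at Day 0 and 49.7, 32.2, 61.2 and 52.4 at Day 3 (-0.25 ± 0.22, adjusted p = 0.419), with overlap. Its lowest group mean was that of Day 14 (44.8, 22.6, 27.2 and 37.5 CPM, -0.81 ± 0.22, adjusted p = 0.0156), a call lost without Day 14 replicate 2 (-0.67) or 3 (-0.73), and at Day 28 it was back at 57.2, 56.4, 85.4 and 54.5 CPM. The Day 14 call of Rpl3l was also lost on log2(TPM + 1) (-0.77) and without TMM (-0.51). The change of Rpl3 from Day 0 to Day 3 was greater in CM than in the mean of the other cell types by 0.95 ± 0.23 (adjusted p = 8.15e-04), and by 0.64 (adjusted p = 0.00124) without the 8 libraries with antisense transcripts.

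**Figure D3:**
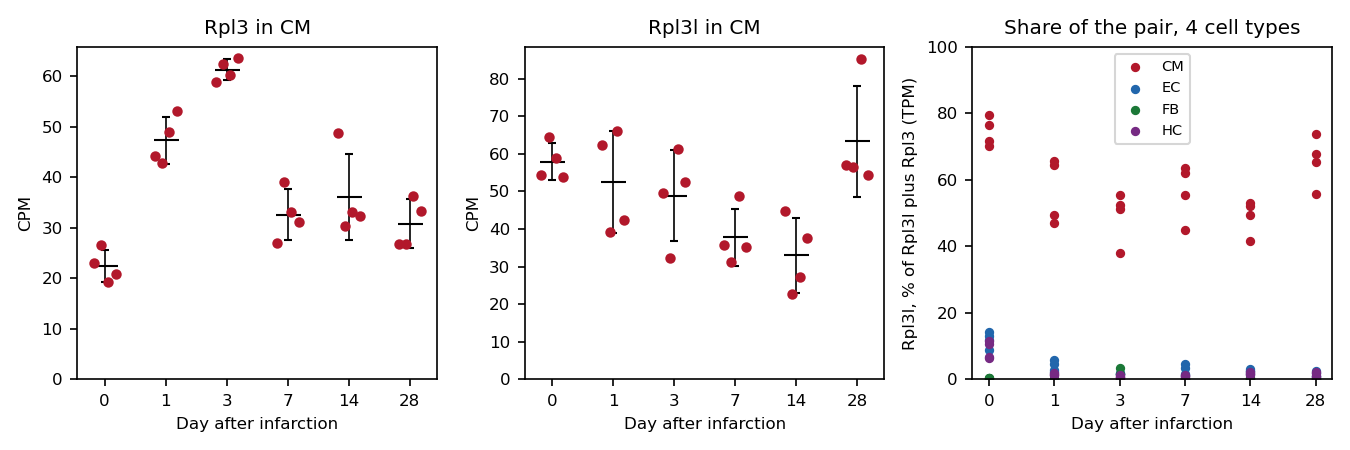
CPM of Rpl3 (left panel) and Rpl3l (middle panel) in CM by day, with a point per library and black bars for the mean ± SD of 4, and (right panel) Rpl3l as a percent of Rpl3l plus Rpl3 on TPM in each library of the 4 cell types (colors). In CM the share falls from 70.2 to 79.4% at Day 0 to 38.1 to 55.5% at Day 3 while Rpl3 rises to 58.9 to 63.5 CPM.

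In EC and HC, Rpl3l was called lower at every later day. In EC the Day 1 call was lost without the EC libraries with antisense transcripts (-1.06, adjusted p = 0.0922) and on log2(TPM + 1) (-0.88), while Day 3 and Day 28 were then at -1.62 and -2.50 without these libraries and still called. In EC it went from 19.6, 23.8, 18.6 and 11.8 CPM at Day 0 to 5.65, 5.74, 4.18 and 4.20 at Day 3 (-1.90 ± 0.32, adjusted p = 7.13e-05) and 1.70, 3.56, 1.51 and 2.83 at Day 28 (-2.95 ± 0.35, adjusted p = 3.33e-06). The HC call at Day 14 was lost on log2(TPM + 0.1) (-1.72). In HC it went from 16.6, 25.8, 28.8 and 17.4 CPM to 2.10, 2.03, 2.52 and 5.54 at Day 3 (-2.86 ± 0.33, adjusted p = 3.07e-07). The 4 CM markers moved with it, from 1641 to 2522 RPM to 404 to 684 at Day 28 in EC and from 1992 to 2939 to 244 to 473 at Day 3 in HC, where all 4 were called lower, and their part in the result was not tested. In EC at Day 28, 3 of the 4 were called lower without the libraries with antisense transcripts. In FB, Rpl3l was below 1 CPM at Day 0 and Day 1, and at Day 3 it stood at 8.80 and 3.03 in replicates 2 and 3 but 0.206 and 0.345 in replicates 1 and 4. The CM markers were at 449 and 318 RPM in those same replicates 2 and 3 of FB and at 13.4 and 18.3 in the others. Across the 24 group means the profile of Rpl3l was most like those of Ankrd23 (r = 0.997), Plin5 (0.996) and Idh2 (0.995) among 7428 genes, a description over groups that share cell types and batches.

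In EC, the cells lining the vessels, 47 of 81 RP genes were higher at Day 3 and 1 (Rpl3l) was lower, where 23.2% of 18144 genes were higher and 22.3% lower. The large subunit had 33 of 50 genes higher, and the median over members was 0.50 against -0.03 over all genes. The 4 libraries of Day 3 lay above those of Day 0 for 31 members, against 20% of all genes, and below for 1 (15.5%). The count was 29 without Day 3 replicate 2, and 54 without the 3 EC libraries with antisense transcripts. Division genes stood at 70.3 to 132 RPM at Day 0 and 780 to 908 at Day 3, and monocyte markers at 49.7 to 73.2 and 399 to 630, and their part was not tested.

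Of the 4 highest changes in EC, 3 were of small subunit genes and the other was Rpl36a. Rps26 went from 52.9, 44.2, 50.9 and 40.6 CPM to 123, 222, 128 and 226 (1.89 ± 0.19, adjusted p = 1.00e-07). Rpsa went from 191, 175, 170.4 and 148 CPM to 378, 496, 386 and 510 (1.37 ± 0.12, adjusted p = 1.40e-08). Rps2 went from 38.93, 40.2, 39.4 and 50.5 CPM to 141, 126, 138 and 129 (1.66 ± 0.13, adjusted p = 3.58e-09). None of these 3 overlapped between the days, and with its copies added Rps2 rose by 1.25. The stalk gene Rplp0 rose by 0.97 ± 0.14 (adjusted p = 9.14e-06), Rpl22l1 by 0.80 ± 0.15 (adjusted p = 2.28e-04) and Rpl3 by 0.72 ± 0.11 (adjusted p = 2.35e-05). The smallest rise named was that of Rps6, from 311, 279, 270 and 191 CPM to 319, 459, 316 and 348 (0.46 ± 0.14, adjusted p = 0.0128). Without the EC libraries with antisense transcripts these 7 genes were still called, at 1.93 (Rps26), 1.48 (Rpsa), 1.57 (Rps2), 1.15 (Rplp0), 0.81 (Rpl22l1), 0.84 (Rpl3) and 0.65 (Rps6). The call of Rps6 was lost without Day 3 replicate 2 (0.31). Rpl36a and its copies stood in opposite order across the libraries of Day 0: the gene was at 16.9 and 11.7 CPM in Day 0 replicates 1 and 2 and at 84.3 and 60.1 in replicates 3 and 4, while its copies stood at 96.7 and 78.8 in the first pair and 0.162 and 0.154 in the second.

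On later days more RP genes of EC were called lower than higher, in numbers that depended on the scaling and the libraries. At Day 1, 7 were higher and 1 lower (9.86% and 9.11% of all genes), with 4 higher without Day 0 replicate 2 or Day 1 replicate 4 and 3 without Day 1 replicate 1. The counts were at Day 7 3 and 19 (18% and 19.6%), at Day 14 3 and 29 (12.8% and 14.3%) and at Day 28 2 and 62 (16.3% and 17.4%), with a median of -0.65 at Day 28. At Day 7 the members called lower were 23.5%, near the share of all genes. By limma on log2(TPM + 1), however, Day 7 had 49 higher and 1 lower, Day 14 had 43 higher and 1 lower, and Day 28 had 40 higher and 1 lower, where the median of all genes was up by 0.57, 0.60 and 0.72, and the members' median at Day 28 was 0.57. The members' median at Day 28 was below that of all genes on both scales, while at Day 7 and Day 14 it was above it on TPM (0.77 and 0.61). With the reads outside rRNA genes and no TMM, 32 were lower at Day 28 at a median of -0.34, against 0.35 for all genes, and at Day 7 13 were higher and 3 lower. Without the EC libraries with antisense transcripts, 2 were lower at Day 7, 2 at Day 14 and 14 at Day 28.

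Single libraries also moved the counts of lower genes. At Day 7 it was 5 without Day 0 replicate 1 or Day 7 replicate 3, 8 without Day 0 replicate 2, 10 without Day 7 replicate 2, 12 without Day 0 replicate 3 and 35 without Day 0 replicate 4. At Day 14 it was 10 without Day 0 replicate 1, 16 without Day 0 replicate 2, 17 and 19 without Day 14 replicates 4 and 3, and 49 without Day 0 replicate 4. At Day 28 it was 47 to 69 over the libraries left out.

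At Day 28, 38 members had all 4 libraries below those of Day 0, as did 14.9% of all genes, and 2 had them above (13.4%). Rpl38, a small basic protein of the large subunit, went from 126, 117, 104 and 63.0 CPM at Day 0 to 40.6, 37.7, 31.9 and 40.6 (-1.44 ± 0.26, adjusted p = 3.01e-04). Rps27, of the small subunit, went from 387, 316, 262 and 149 CPM to 116, 107, 91.2 and 120.2 (-1.36 ± 0.28, adjusted p = 9.28e-04). Rpl11 went from 166, 152, 143 and 89.1 CPM to 57.7, 54.2, 55.6 and 56.3 (-1.29 ± 0.20, adjusted p = 4.73e-05), and Rpl5 from 319, 280.2, 248 and 153 to 115, 116, 104 and 124 (-1.13 ± 0.22, adjusted p = 4.66e-04). In each of these the 4 libraries of Day 28 lay close together and Day 0 replicate 4 was the lowest of its group. Without the EC libraries with antisense transcripts Rpl38 was at -1.07 (adjusted p = 0.0348) and Rpl11 at -1.05 (adjusted p = 0.00768), but the calls of Rps27 (-0.84, adjusted p = 0.0937) and Rpl5 (-0.77, adjusted p = 0.0536) were lost. On log2(TPM + 1), Rpl38 and Rps27 were at -0.48 and -0.05 and Rpl11 and Rpl5 at 0.34 and 0.11. Both genes called higher, Rps2 (0.61 ± 0.13, adjusted p = 7.18e-04) and Rpl10 (0.56 ± 0.14, adjusted p = 0.00341), were at -0.55 and -0.12 with their copies added, and at 0.60 and 0.55 without the libraries with antisense transcripts. The mitochondrial genome went from 22.0% to 31.0% of reads outside rRNA genes at Day 0 to 10.1% to 15.9% at Day 28, and CM markers fell as given above. FB markers went from 75.8 to 113 RPM to 203 to 338 (all 4 called higher, 3 without the libraries with antisense transcripts), leukocyte markers from 2.86 to 3.95 to 7.03 to 17.6 and monocyte markers from 49.7 to 73.2 to 225 to 434, and their part was not tested.

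**Figure D4:**
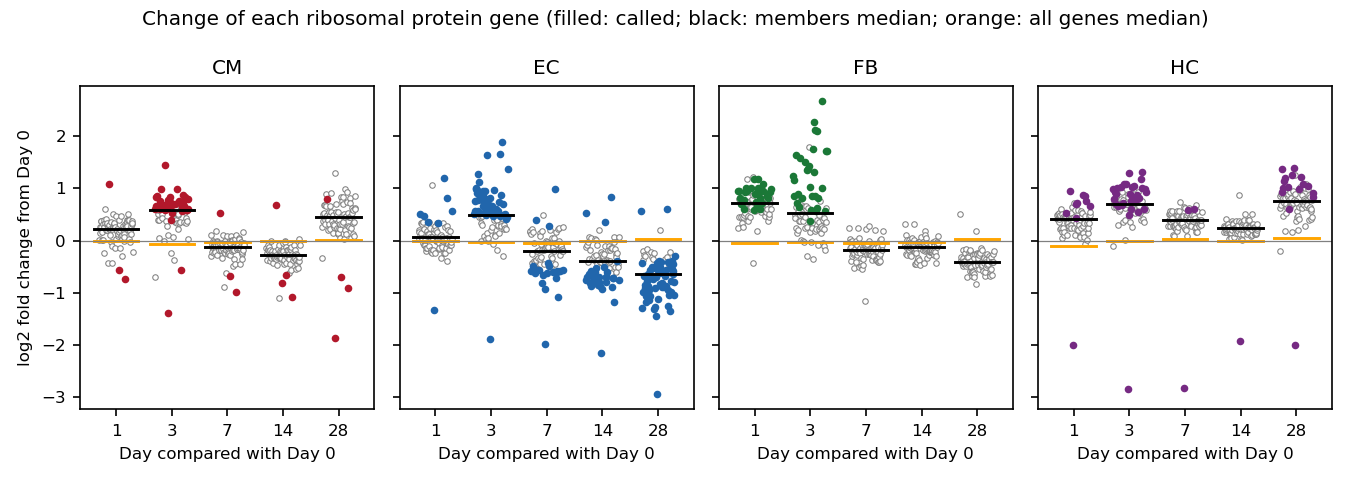
Log2 fold change against Day 0 of every RP gene (points, filled where called) by day and cell type, with the median of the members in black and of all genes in orange. The members' median at Day 3 stands at 0.71 in HC, 0.59 in CM, 0.53 in FB and 0.50 in EC, and at -0.65 in EC at Day 28, values that turn to -1.56 in FB at Day 3 and 0.57 in EC at Day 28 on TPM.

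In FB, the matrix-forming cells, 29 of 82 RP genes were higher at Day 1 and none was lower, where 11.6% of 18658 genes were higher and 6.36% lower (edgeR, with none lower at an unadjusted p under 0.05 or by DESeq2 either). All 4 libraries of Day 1 lay above those of Day 0 for 73 members, against 20.4% of all genes, and below for none (17%). The median was 0.72, with 0.72 in the large subunit too, and by DESeq2 37 were higher. By limma on log2(TPM + 1) none was higher at a median of 0.54. Without FB Day 3 replicates 2 and 3 and Day 28 replicate 4, which share the estimate of the spread, 71 were higher at Day 1. In that fit 67 of 78 mitochondrial ribosomal protein genes were higher too, and of 18 genes that control TOP mRNAs 4 were higher and 1 lower. The count of members was 16 without Day 0 replicate 3 or Day 1 replicate 1, 18 and 19 without Day 0 replicates 1 and 2, and 49 without Day 3 replicate 3. Division genes stood at 22.2 to 30.03 RPM at Day 0 and 77.0 to 162 at Day 1, and their part was not tested.

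Rpl41 and the stalk gene Rplp1 had the highest called changes in FB at Day 1. Rplp1 went from 588, 606, 535 and 714 CPM at Day 0 to 1563, 1184, 1379 and 1435 at Day 1 (1.19 ± 0.28, adjusted p = 0.00515). Rplp0 went from 514, 502, 477 and 502 CPM to 1206, 953, 914 and 924 (1.00 ± 0.19, adjusted p = 5.20e-04). Rpl41, which encodes the smallest RP, went from 349, 337, 298 and 354 CPM to 823, 663, 812 and 754 (1.19 ± 0.36, adjusted p = 0.0236), a call lost without 1 of 6 libraries. In all 3 the groups did not overlap. Rpsa rose by 0.98 ± 0.19 (adjusted p = 6.85e-04), Rps27a, whose product carries ubiquitin at its start, by 0.86 ± 0.17 (adjusted p = 8.10e-04), Rpl22l1 by 0.78 ± 0.18 (adjusted p = 0.00431) and Rpl3 by 0.95 ± 0.25 (adjusted p = 0.0110). The smallest called rise was that of Rpl4 (0.59 ± 0.14, adjusted p = 0.00555).

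At Day 3, 31 of 82 RP genes of FB were higher and none was lower (25.8% and 23.3% of all genes, edgeR, with 1 lower at an unadjusted p under 0.05 and 1 by DESeq2), but 62 were lower and none higher on TPM, where the median of all genes was down at -1.04 and that of members at -1.56. Without TMM, 20 were higher and 1 lower. All 4 libraries lay above Day 0 for 20 members and below for none (16.9% and 20.9% of all genes). The 4 libraries did not behave alike, and without the 3 FB libraries with antisense transcripts 79 of 82 were higher, at a median of 1.02. Without Day 3 replicate 3 alone, 52 were higher. Without the 3 libraries, 67 of 78 mitochondrial ribosomal protein genes were also higher and none lower. Of 79 respiratory chain subunits 68 were then higher and 1 lower, and of 18 genes that control TOP mRNAs 3 and 5. Rps26 went from 140, 133, 124 and 137 CPM to 277, 1086, 1100 and 971 (2.69 ± 0.32, adjusted p = 8.39e-07), and Rplp1 to 1422, 4384, 2946 and 3056 (2.27 ± 0.29, adjusted p = 2.71e-06). Rps4x, an X-linked small subunit gene, had 843 and 1025 CPM in replicates 1 and 4 but 265 and 205 in replicates 2 and 3, against 588 to 661 at Day 0 (-0.11 ± 0.32, adjusted p = 0.802). So replicates 2 and 3 were the lowest for some members and among the highest for others. Rplp0 (1.41), Rplp1 (1.88), Rpsa (1.66) and Rps26 (2.23) were still called higher without the 3 libraries, and Rps4x was then at 0.57 (adjusted p = 0.00462). FB markers went from 2090 to 2249 RPM at Day 0 to 644 to 1364 at Day 3 (all 4 called lower, 3 without the libraries with antisense transcripts) and division genes from 22.2 to 30.03 to 219 to 639, and their part was not tested.

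From Day 7 on, no RP gene of FB was called by edgeR at Day 7 (9.83% of all genes higher and 4.51% lower), Day 14 (8.25% and 2.62%) or Day 28 (2.88% and 0.606%). At an unadjusted p under 0.05 the counts were none at Day 7, 1 lower at Day 14 and 10 lower at Day 28, and DESeq2 called none, 1 and 1 lower. At Day 28 the 4 libraries lay below those of Day 0 for 38 members, against 11.1% of all genes, and above for 1 (11.3%), with a median of -0.41, and 11 were called lower without the 3 libraries with antisense transcripts.

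In HC, the leukocytes, 30 of 82 RP genes were higher at Day 3 and 1 (Rpl3l) was lower, where 23.3% of 18920 genes were higher and 23.1% lower. The median was 0.71 against -0.02 over all genes, and in 24 members the libraries of Day 3 lay above those of Day 0, against 22.5% of all genes, and below in 1 (24.6%). The count moved with single libraries: 7 were higher without Day 3 replicate 4, whose RP share was 5.21% against 2.22% to 3.08% in the other replicates, 17 and 13 without Day 0 replicates 1 and 2, and 59 without Day 28 replicate 4. Without the HC libraries with antisense transcripts, both of Day 28, 61 were higher, and by limma on TPM 2. Neutrophil markers (7 genes) went from 201 to 352 RPM to 670 to 1099, monocyte markers from 238 to 291 to 2763 to 3519 and division genes from 222 to 301 to 589 to 663. EC markers fell from 504 to 733 RPM to 107 to 119.5 and FB markers from 62.0 to 79.1 to 16.8 to 33.0 (4 of 4 called lower in each), and the part of these cells was not tested.

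Rps27l, the paralog of Rps27 and a p53 target, went in HC from 34.8, 39.3, 54.3 and 44.7 CPM to 85.4, 63.2, 81.6 and 200.2 (1.31 ± 0.34, adjusted p = 0.00311). Rpl41 went from 295, 274, 339 and 343 CPM to 528, 383, 575 and 1590 (1.30 ± 0.36, adjusted p = 0.00519), a call lost without Day 3 replicate 4 (0.66). In both the libraries of Day 3 lay above those of Day 0, and replicate 4 was the highest. Rplp0 rose by 1.02 ± 0.25 (adjusted p = 0.00212), Rpsa by 0.93 ± 0.25 (adjusted p = 0.00371), Rpl3 by 0.69 ± 0.18 (adjusted p = 0.00352) and Rpl4 by 0.48 ± 0.17 (adjusted p = 0.0256). The call of Rpl4 was lost without Day 0 replicate 2 (0.47) or Day 3 replicate 4 (0.41). At Day 1, 9 were higher and 1 lower (18% and 23.9% of all genes), at Day 7 2 and 1 (14.1% and 14.1%), at Day 14 none and 1 (6.09% and 6.8%, edgeR, with none higher at an unadjusted p under 0.05 or by DESeq2). At Day 1 the count was 1 without Day 0 replicate 2 or Day 1 replicate 4, 3 and 5 without Day 0 replicates 1 and 4, 5 without Day 1 replicate 1 and 15 without Day 28 replicate 4. At Day 7 it was 8 without Day 28 replicate 4 and 4 without Day 28 replicate 2 or Day 3 replicate 4. The HC files of Day 1 and Day 7 list transcripts and those of Day 0 genes, so day and kind of file cannot be told apart there.

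At Day 28, 15 RP genes of HC were higher and 1 lower (11.3% and 10.4% of all genes), with 11 and 1 not overlapping Day 0 (9.55% and 12.8%), and the count rested on replicate 4. Rpl13a, of the large subunit, went from 190.1, 207, 244 and 242 CPM at Day 0 to 272, 393, 360.0 and 1261 (1.37 ± 0.37, adjusted p = 0.0105). Rpl36 went from 78.4, 87.4, 116 and 104 CPM to 142, 119.8, 135 and 526 (1.26 ± 0.36, adjusted p = 0.0168). In both, replicate 4 alone stood far above the others, and without it the values were 0.65 and 0.47 and no member was higher. Without replicate 2 the count was 55, without replicates 1 and 3 24 and 23, without Day 0 replicates 1, 2 and 4 7, 5 and 7, and without Day 3 replicate 4 34. Without both HC libraries with antisense transcripts it was 0 higher and 1 lower by edgeR, and Rpl13a and Rpl36 were both at 0.52. Neutrophil markers stood at 525 to 1320 RPM at Day 28, monocyte markers at 579 to 919 and EC markers at 169 to 265, and their part was not tested.

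The ribosome-related genes outside the members were counted by lists chosen with earlier results known. The shares of all genes called higher and lower at Day 3 were 16% and 14.6% in CM, 23.2% and 22.3% in EC, 25.8% and 23.3% in FB and 23.3% and 23.1% in HC. Of 42 ribosome biogenesis genes, 32 were higher and 1 lower in EC at Day 3, 10 and 2 in CM, 27 and 1 in FB and 27 and none in HC. Without the libraries with antisense transcripts the counts were 22 and none in EC, 33 and none in FB and 31 and 1 in HC. Npm1, a nucleolar chaperone, rose in EC from 145, 125, 136 and 112 CPM at Day 0 by 1.27 ± 0.13 (adjusted p = 1.32e-07), and in FB at Day 3 by 2.60 ± 0.31 (adjusted p = 1.11e-06), or by 1.33 and 1.47 without these libraries. In CM 14 of the 42 were higher at Day 1 (6.8% of all genes), where 1 of 81 members was higher and 2 were lower. Of 29 initiation factor genes, 24 were higher and 1 lower in EC at Day 3, 20 and none in HC and 12 and 2 in FB. In CM 3 were higher and 2 lower, at a median of 0.04. Without these libraries the counts were 19 and none in EC, 22 and none in HC and 24 and 1 in FB. Pabpc1, which binds poly(A) tails and has a TOP tract, rose in CM by 1.62 ± 0.13 (adjusted p = 2.21e-09), and the elongation factor gene Eef1a1 from 81.7, 58.8, 45.5 and 52.8 CPM by 1.58 ± 0.17 (adjusted p = 1.67e-07). Of 9 elongation factor genes, 7 were higher and 1 lower in EC at Day 3 with and without these libraries. In CM 2 were higher and none was lower, at a median of 0.05. In FB 6 were higher and none lower, and in HC 5 and 2, or 7 and 1 and 6 and 2 without these libraries. Of 18 genes that control TOP mRNAs, 5 were higher and 5 lower in EC at Day 3 (4 and 2 without these libraries), close to the share of all genes, and 2 and 8 in CM. Myc, which drives RP genes, rose in EC by 3.198 ± 0.24 (adjusted p = 3.11e-09), and by 3.34 without them. Mycn, of the same gene family, went the other way in EC at Day 3, at -2.30 without these libraries (edgeR, adjusted p = 2.02e-04). The part of either gene in the result was not tested.

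The 78 genes of mitochondrial ribosomal proteins were counted in the same way. At Day 3 in CM 2 were higher and 3 lower, with a median of -0.12 beside 0.59 for the cytoplasmic members, and in EC 3 were higher and 14 lower (7 and 3 without the libraries with antisense transcripts). In FB 43 were higher at Day 1 and 45 at Day 3, against 11.6% and 25.8% of all genes, and 67 on both days without these libraries. At Day 28 in EC 60 of the 78 were lower, and 78 of 79 tested subunits of the respiratory chain, against 17.4% of all genes, with medians of -0.73 and -1.52. Without these libraries 37 and 71 were lower. The difference between the lists was not tested.

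**Figure D5:**
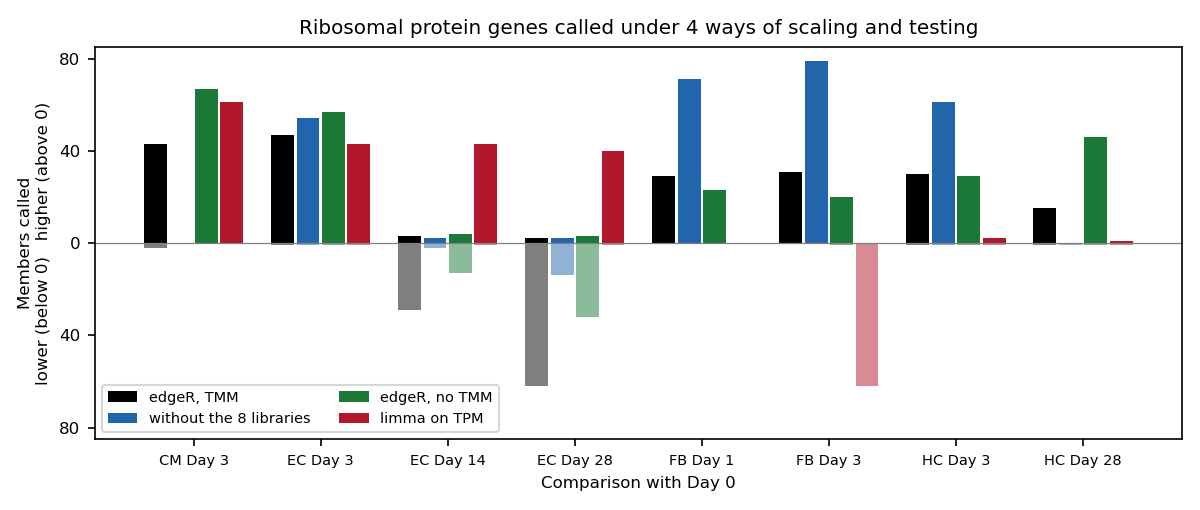
Number of RP genes called higher (above 0) or lower (below 0) in 8 selected comparisons with Day 0 (horizontal axis), by edgeR with TMM (black), without the 8 libraries with antisense transcripts (blue, not drawn for CM, which had none), by edgeR without TMM (green) and by limma on TPM (red). CM and EC at Day 3 have 43 to 67 and 43 to 57 genes higher under the settings drawn, whereas EC Day 28 turns from 62 lower to 40 higher on TPM, FB Day 3 turns to 62 lower and HC Day 28 loses its higher genes without the libraries with antisense transcripts.

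Levels were also compared between cell types over all days, with 96 libraries in a fit that did not pair the cell types by animal. By edgeR, 69 of 82 members were higher in CM than in the mean of the other 3 and 3 lower (29.8% and 51.5% of 22064 genes), with a median of 0.65 where that of all genes was -0.69, but by limma on log2(TPM + 1) 1 was higher and 80 lower, with medians of -2.11 and -1.31. All 82 were lower in EC (40.5% of genes higher and 30.6% lower, none higher at an unadjusted p under 0.05 or by DESeq2), at a median of -0.94, and 40 on TPM. In FB 37 were higher and 9 lower (39.6% and 34.2%), and in HC 32 and 6 (44% and 34.3%), a count of 18 without replicate 4, and on TPM 74 and 80 were higher. Without the 8 libraries with antisense transcripts, 73 were higher in CM, 82 lower in EC, and 41 and 24 higher in FB and HC. The reads of CM outside rRNA genes were largely mitochondrial, 35.5% to 58.5%, and cell type cannot be told apart from batch.

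The change from Day 0 was compared between each cell type and the mean of the other 3 to ask where a change was particular to a cell type. At Day 3 in CM, 2 members (Rpl3 and Rpl3l) had a higher change and 6 a lower one (14.3% and 6.95% of genes), with 2 lower without replicate 2 of each group. The call of Rpl3l was lost by DESeq2 (0.83), with no filter (1.21) and without replicate 1 (0.81), 3 (1.17) or 4 (1.10). Rpl3l was not called in CM at Day 3, but was lower in EC (-1.90) and HC (-2.86), where CM markers fell as well. The 6 lower ones were Rpl36a, Rps2, Rpsa, Rpl10, Rps26 and Rplp0, and on TPM 31 were higher and none lower. Rpsa differed by -1.21 ± 0.27 (adjusted p = 3.66e-04) and Rps26 by -1.06 ± 0.32 (adjusted p = 0.0106), calls that were lost without replicate 2 (-0.86 and -0.78), and they stood at -1.33 and -1.03 without the 8 libraries with antisense transcripts and at -0.29 and 0.15 on TPM. With copies added Rpl36a, Rps2 and Rpl10 differed by 0.23, -0.94 and 0.39. Without the 8 libraries 9 were lower. In FB at Day 3, 11 were higher and 5 lower (12.2% and 21.5%), and 1 was higher without replicate 2 or 3 and 3 without the 8 libraries. In EC at Day 28, 1 was higher and 33 lower (5.13% and 7.87%), among them Rpl38 (-1.93 ± 0.41, adjusted p = 8.06e-04), Rpl11 (-1.60 ± 0.30, adjusted p = 1.46e-04) and Rpl5 (-1.36 ± 0.34, adjusted p = 0.00362), with 9 lower without replicate 1, 19 without replicate 3 and 3 without the 8 libraries with antisense transcripts, and on TPM 11 were higher and 1 lower, with a median of 0.73 over all genes. Without the 8 libraries Rpl11 was still called (-1.21) and Rpl38 (-1.19) and Rpl5 (-0.83) were not. In HC at Day 7, 5 were higher and 1 lower (5.75% and 11.4%), with 2 higher without replicate 1 or 3, 1 without replicate 2 and 18 without replicate 4. In HC at Day 28, 47 were higher (3.87% of genes), but 1 without replicate 4, 13 without replicate 1, 30 without replicate 2, 2 without the 8 libraries and 1 on TPM. In the other 15 comparisons at most 3 members passed in a direction, where 0.789% to 16.3% of genes did.

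The paralogs are set beside their partners here, with no test of the difference between them. Rpl22l1, 68.2% identical to Rpl22 in its coding bases, was higher at Day 3 in CM (0.99), EC (0.80), FB (0.65) and HC (0.67), but at -1.35 in FB on TPM and 0.95 there without the libraries with antisense transcripts, and the HC call was lost without 1 of 5 libraries, such as Day 3 replicate 4 (0.35). In CM its partner Rpl22 rose by 0.65 ± 0.21 (adjusted p = 0.0243). Rpl36al, 87.7% identical to Rpl36a, rose in CM at Day 3 by 0.77 ± 0.20 (adjusted p = 0.00434) and in HC by 1.08 ± 0.35 (adjusted p = 0.0150). Rps27l was at 0.36 ± 0.21 in CM at Day 3 (adjusted p = 0.199), where Rps27, 61.0% identical, rose by 0.87 ± 0.30 (adjusted p = 0.0319). Rpl7l1, which shares 54.0% of bases with Rpl7 and acts in ribosome assembly, was at 0.08 ± 0.11 in CM at Day 3 (adjusted p = 0.649) and Rpl7 at 0.40 ± 0.16 (adjusted p = 0.0659).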

How the data were processed

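Total RNA was depleted of rRNA and made into libraries by poly(A) tailing, oligo-dT priming and template switching. Per the labels and methods, Trim Galore, STAR 2.28 and Salmon were the tools the authors used, on mm10. The estimated counts (NumReads, expected counts) and the TPM were deposited by the authors per library, by transcript in CM, EC and HC Day 1 and Day 7 and by gene in FB and the other HC groups. Both were summed to genes with GENCODE M21 names. In HC and in the fit of all 96 libraries, 138 genes whose length separated the kinds of file were left out. Day 1 and Day 7 of HC still cannot be told apart from the kind of file when set against Day 0. The same holds for FB against CM and EC. Counts were rounded and tested in R 4.3.3 with edgeR 4.0.16 (filterByExpr, TMM, robust quasi-likelihood, Benjamini-Hochberg adjustment), within each cell type over its 24 libraries and, between cell types, over 96. Shares and marker sums used reads outside rRNA genes, and CPM all reads. DESeq2 1.42.0 and limma 3.58.1 on log2(TPM + 1) or log2(TPM + 0.1) for genes of at least 0.5 mean TPM were alternatives, with no filter, no TMM, pseudogene reads added, a replicate block, 1 library left out and the 8 libraries left out. The edgeR, DESeq2 and limma steps were checked on simulated data for CM Day 3 only, with limma given CPM in place of TPM. The limma fits on TPM and the fit of 96 libraries were not checked in this way. Members, lists and tests were chosen with earlier results of these data known. The text names paralog pairs, the stalk genes, Rpsa, Rpl5, Rpl11, Rps6, Rps2, Rpl34, Rps27a and, in each comparison, the 2 highest and 2 lowest called changes at 10 CPM or more without overlap; others are said to be chosen after their values were seen. For related genes the rule was the same, with up to 3 a list.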

Additional observations from a re-analysis of the deposited data

Results flagged for a closer look

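In 15 of the 120 groups of 4 libraries examined, 1 library stood apart from the other 3 by more than the 95% critical value of Dixon's test, which chance gives in about 1 in 20 groups. For the share of reads on RP genes these were EC Day 7 replicate 3, at 1.29% where the others had 1.73% to 1.78%, and HC Day 28 replicate 4, at 7.08% where the others had 2.32% to 3.09%. For Rpl3 they were CM Day 14 replicate 1 (48.7 CPM against 30.4 to 33.0), EC Day 3 replicate 2 (407 against 325 to 338), HC Day 14 replicate 3 (401.5 against 383 to 385) and HC Day 28 replicate 4 (722 against 377 to 399). For Rpl3l they were CM Day 28 replicate 3 (85.4 CPM against 54.5 to 57.2), FB Day 1 replicate 4 (0.768 against 0.285 to 0.320), HC Day 1 replicate 3 (7.00 against 4.75 to 5.12) and HC Day 3 replicate 4 (5.54 against 2.03 to 2.52). For Rps2 they were EC Day 0 replicate 4 (50.5 CPM against 38.93 to 40.2), EC Day 1 replicate 4 (126 against 86.8 to 90.1) and HC Day 3 replicate 4 (91.7 against 127 to 133). For Rpl36a they were CM Day 3 replicate 1 (23.7 CPM against 7.43 to 7.86) and CM Day 28 replicate 4 (12.4 against 6.31 to 7.26).

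In 5 comparisons the change from Day 0 differed between 1 cell type and the mean of the other 3 for at least 5 members in a direction, by edgeR's test of the difference. The counts were 6 lower in CM at Day 3 (7.32% of members and 6.95% of all genes) and 33 lower in EC at Day 28 (40.2% and 7.87%). They were 11 higher in FB at Day 3 (13.4% and 12.2%), 5 higher in HC at Day 7 (6.10% and 5.75%) and 47 higher in HC at Day 28 (57.3% and 3.87%). FB at Day 3 also had 5 lower (6.10% and 21.5%). In CM at Day 3, in HC at Day 7 and for the higher genes of FB at Day 3, the members' share was near that of all genes.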

How the results depend on the processing

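The counts below are of members called in the direction with more calls in each comparison. Of these counts, CM and EC at Day 3 had 43 to 67 and 43 to 57 genes higher with TMM, without TMM and on TPM, while the direction or size of those of EC from Day 7, FB Day 3 and HC Day 28 changed. The causes were not tested. The shallow FB Day 3 libraries limit the precision there. By DESeq2, the counts that moved were HC Day 28 29 higher, CM Day 14 5 lower and, for the change against the other cell types, FB Day 1 1 and HC Day 14 1 higher. In the other direction CM Day 28 went from 1 to 8 higher. By limma on log2(TPM + 0.1) and on log2(TPM + 1), EC Day 1 had 16 and 12 higher, HC Day 7 5 and 5, HC Day 3 2 and 2, HC Day 28 1 and 1, and FB Day 1, FB Day 3 and HC Day 1 0 and 0. EC Day 7, Day 14 and Day 28 had 1 lower on both, CM Day 1, Day 7, Day 14 and Day 28 had 0, and HC Day 14 had 0 on log2(TPM + 0.1). On log2(TPM + 1), 1 member was higher in CM than in the other cell types, 74 in FB and 80 in HC, and 40 were lower in EC. The changes against the other cell types were then 0 lower in CM on every day, 1 lower in EC at Day 28 and 0, 11, 9 and 15 higher at Day 1, 3, 7 and 14, 1 higher in FB at Day 3, 7 and 14, and 0, 2 and 1 higher in HC at Day 1, 7 and 28. With no filter, FB Day 1 had 19 higher, HC Day 28 7, EC Day 7 8 lower and EC Day 14 19, and the changes were 6 higher in FB at Day 3 and 0, 1 and 1 in HC at Day 1, 3 and 7. With pseudogene reads added, HC Day 7 had 0 higher, CM Day 1, Day 7 and Day 28 had 0 lower and CM Day 14 1, and the changes were 0 lower in CM at Day 7, 14 and 28, 0 higher in EC at Day 1, 3, 7 and 14 and 0 and 3 higher in HC at Day 1 and 7. Without TMM, CM Day 3 had 67 higher, FB Day 3 20, HC Day 7 8 and HC Day 28 46, and CM Day 1 had 0 lower, CM Day 7 1, CM Day 14 1, EC Day 7 3, EC Day 14 13 and EC Day 28 32.

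Without the libraries with antisense transcripts, EC Day 7, Day 14 and Day 28 had 2, 2 and 14 lower, FB Day 1 and Day 3 71 and 79 higher, and HC Day 1, Day 3, Day 7 and Day 28 17, 61, 13 and 0 higher. The changes were 5, 5 and 4 lower in CM at Day 1, 7 and 14, 3 lower in EC at Day 28 and 0, 1 and 1 higher at Day 1, 3 and 14, 2 and 3 higher in FB at Day 1 and 3, and 15, 2 and 2 higher in HC at Day 7, 14 and 28.

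The replicate numbers showed no clear pairing of the libraries. The study took the pools of the cell types of a day from the same animals, and low correlations cannot exclude that pairing. The tests between cell types treated the libraries as independent. The deviations of same-numbered libraries correlated at a median of 0.025 within a cell type (-0.565 to 0.519, 89 of 240 pairs over 0.1) and 0.040 within a day (-0.514 to 0.486, 47 of 144). With a replicate block, CM Day 14 had 10 lower and HC Day 7 4 higher. A block within each day, chosen after seeing the data, gave 26 higher for the change in HC at Day 28, against 47 without it. In the other direction, CM Day 1 went from 1 to 5 and CM Day 28 from 1 to 12 higher with a replicate block. No other of the counts in the direction with more calls moved by over 1.5 times with a block.

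With 1 library left out, the counts ranged in CM from 0 to 2 lower at Day 1, 15 to 51 higher at Day 3, 2 to 3 lower at Day 7, 2 to 21 at Day 14 and 0 to 3 at Day 28. In EC they ranged from 3 to 8 higher at Day 1, 29 to 54 at Day 3, and 5 to 35, 10 to 49 and 47 to 69 lower at Day 7, 14 and 28. In FB they ranged from 16 to 49 higher at Day 1 and 21 to 52 at Day 3, and stayed at 0 later. In HC they ranged from 1 to 15, 7 to 59 and 2 to 8 higher at Day 1, 3 and 7, 1 to 1 lower at Day 14 and 0 to 55 higher at Day 28. Between cell types, with a replicate number left out, they ranged from 66 to 70 in CM, 81 to 82 in EC, 31 to 37 in FB and 18 to 45 in HC. The changes ranged from 2 to 3, 2 to 6, 1 to 2, 1 to 2 and 0 to 3 lower in CM at Day 1, 3, 7, 14 and 28. In EC they ranged from 0 to 1, 1 to 5, 1 to 1 and 1 to 2 higher at Day 1, 3, 7 and 14 and 9 to 30 lower at Day 28. In FB they ranged from 0 to 2 and 1 to 12 higher at Day 1 and 3 and stayed at 0 later, and in HC from 0 to 2, 0 to 2, 1 to 18, 0 to 1 and 1 to 48 higher at Day 1, 3, 7, 14 and 28.

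Of the 95 called values of named members, 33 lost their call without 1 library. With pseudogene reads added, the direction turned for Rpl10 in EC at Day 28 (-0.12), Rpl36a in CM at Day 3 (0.78) and Day 28 (0.45) and in its change in CM (0.23) and EC (-0.043) at Day 3, the change of Rpl10 in CM at Day 3 (0.39), Rpl9 in CM at Day 1 (0.012) and Day 28 (0.27) and EC at Day 14 (-0.55), and Rps2 in CM at Day 1 (0.081), Day 3 (0.28) and Day 28 (0.12) and EC at Day 7 (-0.0082), Day 14 (-0.22) and Day 28 (-0.55). On log2(TPM + 1) and log2(TPM + 0.1), it turned for Rpl22l1 (-1.35 and -1.38), Rps14 (-1.48 and -1.49) and Rpsa (-0.73 and -0.73) in FB at Day 3, Rpl11 (0.34 and 0.35) and Rpl5 (0.11 and 0.11) in EC at Day 28, Rpl7l1 in EC at Day 7 (0.57 and 0.72) and Rps2 in CM at Day 3 (0.41 and 0.44), and on log2(TPM + 1) for the changes of Rps2 (0.15), Rps26 (0.15) and Rpl10 (0.13) in CM at Day 3 and of Rpl11 (0.24) and Rpl5 (0.0011) in EC at Day 28.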
